A study of Mus musculus with 4 samples.

Results

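The DNA damage signalling and repair genes described here are 33 listed genes. They sense broken or damaged DNA, relay the signal through checkpoint kinases, or carry out the repair. The genes are listed by name, and the rule that lists them has no threshold on a measured value. Of the 33 genes, 27 could be given a level of their own among 10267 genes tested, and 6 share a locus with another gene and could not. RNA-seq was done in 46C ES cells, a mouse embryonic stem cell line, grown with LIF and 15% serum on gelatin. All 4 libraries carry the Atad2 TAP-tag knock in, from 1 clone, the controls included. The si-ctrl libraries 1 and 2 come from cells given the scrambled siRNA and the si-Atad2 libraries 1 and 2 from cells given siRNA against Atad2, a bromodomain ATPase of chromatin. The study used 2 active anti-Atad2 siRNAs, and which of them went into which library is not stated. A difference between the si-Atad2 libraries may therefore also be one of siRNA. The labels call the libraries of a condition replicates, whereas the study's legend speaks of repeat sequencing of the RNA, so p-values may cover technical spread only.

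DNA is damaged continually by replication errors, oxidation and hydrolysis, and each kind of lesion has its own repair route. Base excision repair removes damaged bases and seals the single-strand breaks that follow. Mismatch repair corrects replication errors, nucleotide excision repair removes bulky lesions, and the Fanconi anaemia proteins act on interstrand crosslinks. Double-strand breaks are joined end to end or repaired from the sister chromatid by homologous recombination. The kinases Atm and Atr hold the cell cycle while this goes on. ES cells divide fast, spend much of their cycle in S phase and are known for high levels of repair genes and for a leaning towards recombination.

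Levels are FPKM, that is fragments counted per kilobase of a transcript, corrected for how deeply the library was sequenced. They come from 2 Cuffdiff runs, each on 1 si-Atad2 and 1 si-ctrl library. Knockdown was therefore compared inside each run, by dividing si-Atad2 FPKM + 1 by si-ctrl FPKM + 1, and the log2 of this value is called the pair 1 or pair 2 ratio. The tables hold no read counts, so the depth is unknown. Precision was read from the deposited 95% intervals, whose half-width in si-ctrl 1 was between 1.06% and 7.10% of the level for the main transcript of each of the 27 genes. Summed FPKM of the libraries lay between 314943 and 324048. ES cell markers (8 of 8) stood between 62.9 and 1013 FPKM in every library. Fibroblast feeder markers summed to 7.16 to 8.49 FPKM, of which Thy1 held 5.56 to 6.75, and Lum was listed at 0 in all 4 libraries. Markers of primitive endoderm summed to 6.02 to 6.75 FPKM and those of neural cells and mesoderm to 9.92 to 10.9 FPKM, with no marker of these at 0 in all 4 libraries. Atad2 itself stood at 34.1 FPKM in si-ctrl 1 and 36.0 in si-ctrl 2 against 10.1 in si-Atad2 1 and 13.0 in si-Atad2 2. It fell by 1.53 on the log2 scale (standard error 0.075, adjusted p = 5.3e-09 by limma), and with 2 libraries against 2 an exact permutation test cannot go below p = 0.333.

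None of the 27 repair genes passed the test on knockdown, whereas 374 of all 10267 genes did (3.64%, with limma and Benjamini-Hochberg adjustment at 0.05). Without the replicate block, that is as 2 libraries against 2, 180 genes passed and again none of the 27. The mean log2 ratios of the 27 genes ran from -0.21 (Fanca) to 0.075 (Lig3), and 24 of them lay within 0.1 of 0. The 95% intervals of 25 genes stayed inside -0.3 to 0.3, that is within 1.23-fold in either direction, and 26 intervals included 0. At an unadjusted p under 0.05, 1 of the 27 genes was counted, Fanca, against 17.0% of all genes tested. Of the 374 genes called, 261 were higher and 113 lower in si-Atad2. This split moved with the scaling, to 345 higher and 55 lower after rescaling to TPM and to 157 higher and 32 lower with median-of-ratios scaling.

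**Figure D1:**
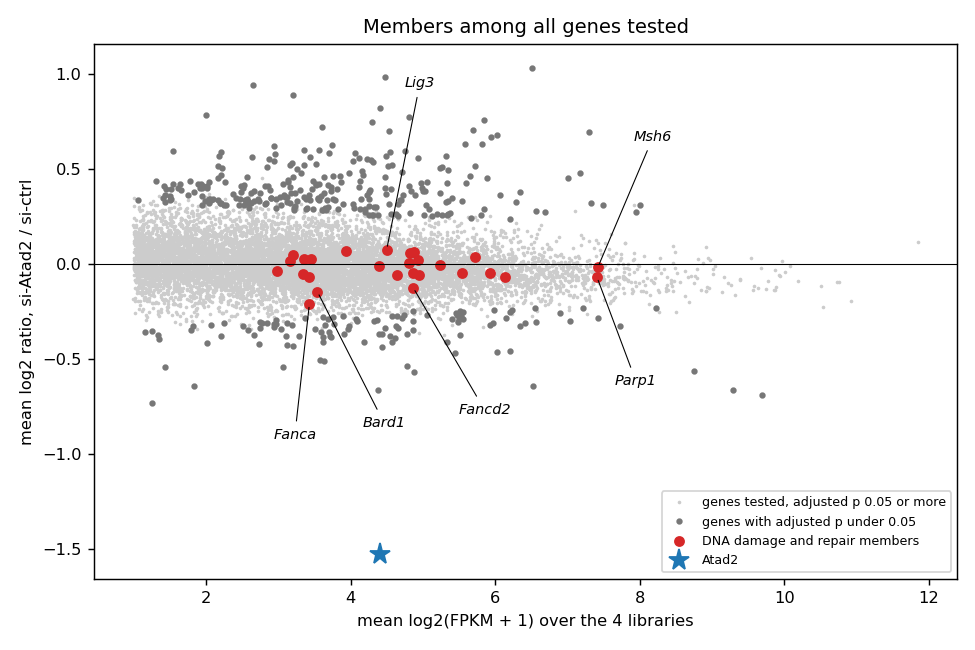
The mean log2 ratio of si-Atad2 over si-ctrl (y axis) against the mean log2(FPKM + 1) over the 4 libraries (x axis) for all 10267 genes tested. Light points are genes that missed and dark points genes that passed the adjusted p of 0.05. The 27 repair genes, in red, lie between -0.21 and 0.075, in the band of genes not called, and Atad2, the star, lies at -1.53.

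The 27 listed repair genes were well expressed in these ES cells, as the plot of levels by library shows. Their si-ctrl levels, the mean of the si-ctrl libraries, had a median of 26.7 FPKM against 10.1 FPKM over all genes tested, and 20 of the 27 stood at 10 FPKM or more. Levels spanned 24.6-fold, from Lig4 at the bottom to Parp1 and Msh6 at the top. The lowest, Lig4, was at percentile 39.4 of all genes tested. High levels went with this list and not with repair genes at large. The 88 other repair genes tested, outside the list, had a median si-ctrl level of 10.6 FPKM. FPKM are per length, but many gene levels are sums over rows whose shares are estimated, so the order of genes by level is a description. The si-ctrl libraries come from separate runs and are also set side by side as a description.

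**Figure D2:**
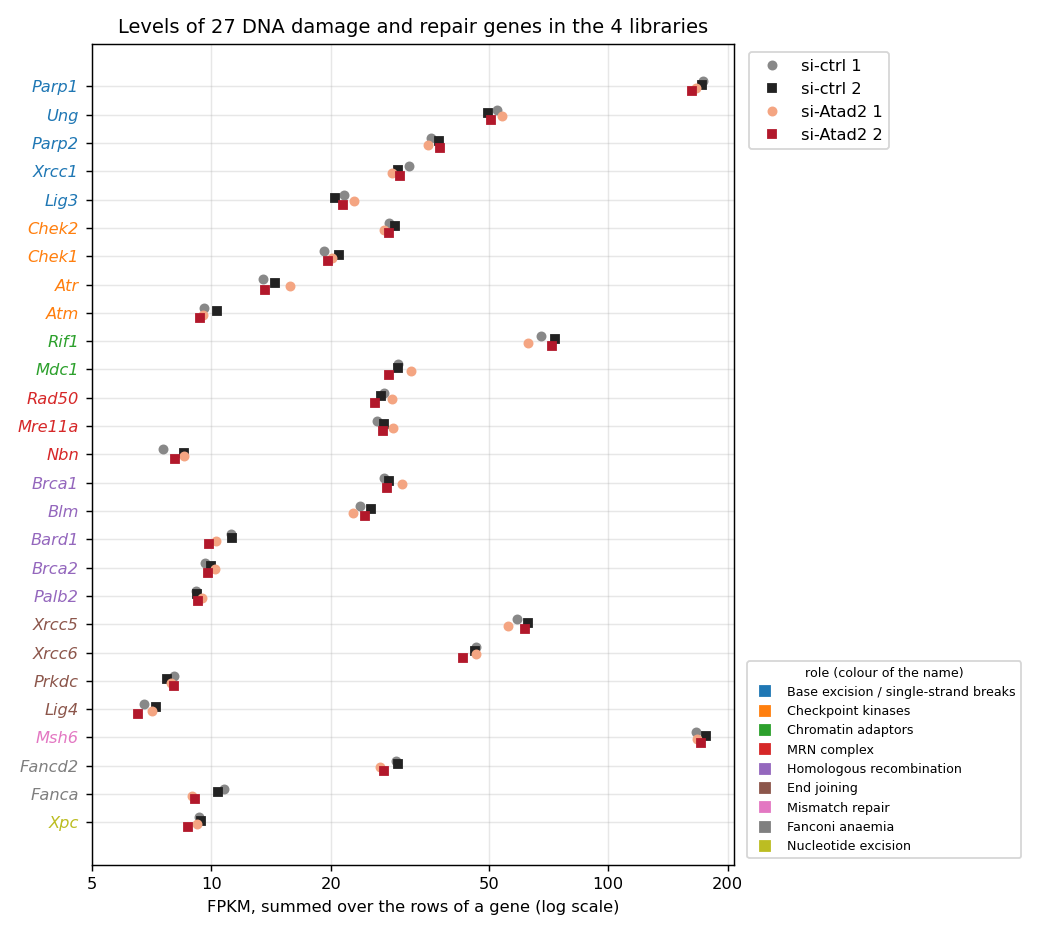
FPKM of the 27 repair genes (x axis, log scale), summed over the rows of a gene, with 1 symbol for each library and genes grouped by role through the colour of the name. Parp1 and Msh6 stand at 163 FPKM or more in every library, and Lig4, Nbn and Prkdc at 8.55 or less.

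Base excision and single-strand break repair held the gene with the highest level. Parp1, the poly(ADP-ribose) polymerase that binds strand breaks and marks the chromatin around them, lies at chr1:180568924-180601254 on the plus strand of GRCm38. It stood at 173 FPKM in si-ctrl 1 and 172 in si-ctrl 2, and at 167 in si-Atad2 1 and 163 in si-Atad2 2. Both si-Atad2 libraries were below both si-ctrl libraries, and the mean log2 ratio was -0.068 (standard error 0.059, adjusted p = 0.612). Its relative Parp2 stood at 35.9 and 37.5 FPKM in si-ctrl and at 35.2 and 37.8 in si-Atad2, and the pair ratios, -0.026 and 0.011, had opposite signs. Parp1 was thus the more abundant of these polymerases by level in each library.

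The other genes of the route showed values on both sides of 0. Lig3, the DNA ligase that seals single-strand breaks together with Xrcc1 and also serves the mitochondria, lies at chr11:82781108-82804274. It had the highest mean ratio of the 27 genes, 0.075 (standard error 0.068, adjusted p = 0.631), from 21.5 and 20.5 FPKM in si-ctrl to 23.0 and 21.5 in si-Atad2. Si-Atad2 2 lay below si-ctrl 1, so the groups overlapped. Xrcc1, the scaffold that holds Lig3, had ratios of -0.13 in pair 1 and 0.013 in pair 2, and Cuffdiff marked its main row as low data. Ung, the glycosylase that removes uracil from DNA, stood between 49.7 and 54.1 FPKM in all 4 libraries, with a mean ratio of 0.036. Counted over the role, 2 of the 5 tested genes (Lig3 and Ung) had a ratio above 0 in both pairs and 1 (Parp1) below 0 in both.

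Among the checkpoint kinases the effector kinases were listed at higher levels than the apical ones. Chek2, the kinase that Atm activates after double-strand breaks, lies at chr5:110839979-110874145 and was the highest, at 28.1 and 29.1 FPKM in si-ctrl and 27.2 and 28.1 in si-Atad2. Its ratios were -0.047 in pair 1 and -0.046 in pair 2 (standard error 0.066, adjusted p = 0.784). Chek1, which Atr activates at stalled forks, stood between 19.3 and 21.0 FPKM in all libraries, with a mean ratio of -0.012. The apical kinases were listed lower. Atm (chr9:53439149-53536740), which responds to double-strand breaks, was listed at 9.59 and 10.3 FPKM in si-ctrl and at 9.53 and 9.37 in si-Atad2. Its mean ratio of -0.067 (standard error 0.075, adjusted p = 0.713) came mostly from pair 2, at -0.13, and with the single highest row of the gene in place of the sum the ratio was 0.029. Atr (chr9:95857597-95951781), the kinase of replication stress, was listed at 13.5 and 14.5 FPKM in si-ctrl. Si-Atad2 1 was the highest library at 15.8 FPKM and si-Atad2 2 stood at 13.7, between the si-ctrl libraries. The Atr ratios of 0.20 and -0.072 therefore had opposite signs, with a mean of 0.066 (standard error 0.078, adjusted p = 0.733). Atr shares its locus with Xrn1, where rows given to no gene held 7.97 FPKM on average. The order of Atr and Chek1 by level is therefore not settled.

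The chromatin adaptors and the MRN complex act at DNA breaks. Rif1, which blocks the trimming of broken ends and also sets replication timing, lies at chr2:52072832-52122383 and had the third highest level of the 27 genes. It stood at 67.8 and 73.6 FPKM in si-ctrl and at 62.9 and 72.2 in si-Atad2. Library 2 was above library 1 in both conditions, and the groups overlapped, with a mean ratio of -0.066 (standard error 0.063, adjusted p = 0.650). Mdc1, the adaptor that reads phosphorylated H2A.X, stood between 28.0 and 31.8 FPKM with ratios of 0.11 and -0.069.

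Mre11a, Rad50 and Nbn form the MRN complex, which tethers broken ends and activates Atm. Rad50 (chr11:53649519-53707319) stood at 27.3 and 26.9 FPKM in si-ctrl and at 28.5 and 25.9 in si-Atad2, with a mean ratio of 0.0057 (adjusted p = 0.978). Mre11a (chr9:14784654-14837123), the nuclease, stood at 26.2 and 27.3 FPKM in si-ctrl and at 28.7 and 27.1 in si-Atad2. Nbn (chr4:15957925-15992589), the subunit that recruits Atm, was lower at 7.57 and 8.55 FPKM in si-ctrl and 8.54 and 8.13 in si-Atad2. The 3 subunits showed the same picture, with a ratio above 0 in pair 1 (0.13, 0.061 and 0.15 for Mre11a, Rad50 and Nbn) and below 0 in pair 2 (-0.0062, -0.050 and -0.065). For Mre11a and Nbn the mean ratios were 0.061 and 0.045, with adjusted p of 0.717 and 0.833.

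Homologous recombination genes divided by level into a higher and a lower set. Brca1 (chr11:101488764-101551955), the ubiquitin ligase that promotes end trimming and recombination, stood at 27.2 and 28.0 FPKM in si-ctrl and at 30.2 and 27.7 in si-Atad2. Its ratios were 0.14 and -0.016 (mean 0.064, standard error 0.069, adjusted p = 0.702). Blm, the helicase that dissolves recombination intermediates, stood between 22.7 and 25.3 FPKM. Bard1, Brca2 and Palb2 were below these, between 9.15 and 11.3 FPKM in all 4 libraries.

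Bard1 (chr1:71027498-71103146), the partner without which the Brca1 protein is unstable, had the second lowest ratio of the 27 genes. It was listed at 11.2 and 11.3 FPKM in si-ctrl and at 10.3 and 9.86 in si-Atad2, so the groups did not overlap. The ratios were -0.11 and -0.18, and the mean of -0.15 (standard error 0.073, 95% interval -0.30 to 0.009) missed the threshold at an adjusted p of 0.332. Its partner Brca1 lay on the other side of 0, but the difference between these genes was not tested. Palb2, which bridges Brca1 and Brca2, was the one gene of the 27 whose si-Atad2 libraries both stood above both si-ctrl libraries (9.46 and 9.26 against 9.15 and 9.22 FPKM), a difference of 0.025 in mean log2 ratio. Among all genes tested 22.2% were placed like this. Brca2, a mediator of strand exchange in recombination, had a mean ratio of 0.024.

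The Fanconi anaemia genes, of which 2 could be tested, had the lowest median ratio of any role, -0.17. Fanca (chr8:123268300-123318576, minus strand), a subunit of the ubiquitin ligase core complex of the pathway, was listed at 10.8 and 10.4 FPKM in si-ctrl and at 8.95 and 9.10 in si-Atad2. Both si-Atad2 libraries were below both si-ctrl libraries, and the replicates of each condition differed by less than the conditions did. The ratios were -0.25 and -0.17, with a mean of -0.21 (standard error 0.074, 95% interval -0.37 to -0.053). The unadjusted p was 0.012 and the adjusted p 0.139 by limma, so Fanca did not pass. In bulk RNA, fewer cells that express a gene and less of its RNA per cell cannot be told apart. Fanca shares its locus with Zfp276, and its main row was given to it by the nearest length, 56 bases from a Fanca transcript and 430 from the closest of Zfp276.

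Fancd2 (chr6:113531682-113597017), the protein that this ligase ubiquitinates, was listed at 29.2 and 29.6 FPKM in si-ctrl and at 26.6 and 27.3 in si-Atad2. The groups did not overlap, and the ratios were -0.13 and -0.12 (mean -0.12, standard error 0.066, adjusted p = 0.370). Fanca and Fancd2 were thus below 0 in both pairs, as were 34.3% of all genes tested.

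End joining, mismatch repair and nucleotide excision repair genes lay close to 0. Xrcc5 (chr1:72307421-72394952) and Xrcc6 encode Ku80 and Ku70, the ring that captures broken ends. Xrcc5 stood at 59.1 and 62.8 FPKM in si-ctrl and at 55.9 and 61.8 in si-Atad2 (mean ratio -0.049, standard error 0.063, adjusted p = 0.760). Xrcc6 stood at 46.5 and 46.2 against 46.4 and 43.2 FPKM, with the same mean ratio of -0.049. The enzymes that Ku recruits were much lower. Prkdc, the catalytic subunit of the DNA-dependent kinase, stood between 7.74 and 8.06 FPKM and Lig4, the ligase of the route, between 6.55 and 7.28 FPKM. Their mean ratios were 0.016 and -0.037.

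Msh6 (chr17:87975062-87990892), which recognises mismatched bases, matched Parp1 in level. It stood at 167 and 176 FPKM in si-ctrl and at 167 and 172 in si-Atad2, and the mean ratio was -0.017 (standard error 0.059, adjusted p = 0.924). Its sign turned to 0.019 after rescaling to TPM. Cuffdiff marked the single Msh6 row as a failed estimate in 1 library. Xpc (chr6:91489305-91515888), the sensor that opens global nucleotide excision repair, stood at 9.32 and 9.40 FPKM in si-ctrl and at 9.24 and 8.72 in si-Atad2 (mean ratio -0.055, standard error 0.075, adjusted p = 0.776).

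**Figure D3:**
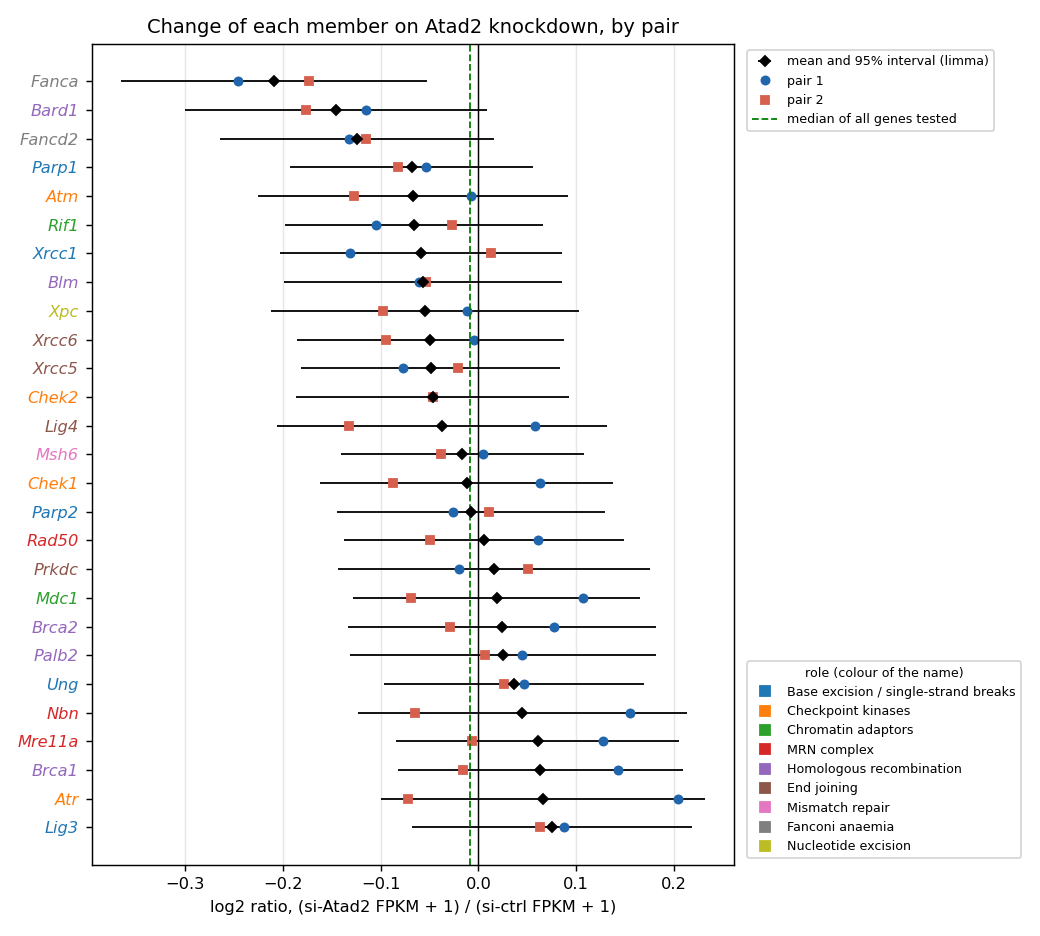
Log2 ratio of si-Atad2 over si-ctrl (x axis) for the 27 repair genes in order of their mean, with circles for pair 1, squares for pair 2 and diamonds for the mean with its 95% interval from limma. The dashed line is the median of all genes tested, -0.0087. The interval of Fanca alone lies off 0, and for many genes near 0 the circle and the square fall on opposite sides.

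Over all, the 27 genes had a median log2 ratio of -0.017 against -0.0087 over all genes tested, and rescaling to TPM turned the sign of both, to 0.019 and 0.029, while median-of-ratios scaling gave -0.0098 and -0.0027. In pair 1 the median was -0.0040 and in pair 2 it was -0.050, against 0.0006 and -0.016 over all genes. A ratio below 0 in both pairs was found for 11 of the 27 genes and for 34.3% of all genes. A ratio above 0 in both pairs was found for 3 of 27 (Lig3, Ung and Palb2) and for 28.4% of all genes, and the remaining 13 had opposite signs. After rescaling to TPM these counts were 6 below and 8 above 0, against 22.5% and 39.1% of all genes. In 6 of 27 genes (Parp1, Atm, Bard1, Fanca, Fancd2 and Xpc) both si-Atad2 libraries stood below both si-ctrl libraries, against 27.0% of all genes.

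The knockdown ratios of single pairs were of about the size of the differences between replicates. The median absolute ratio of the 27 genes was 0.063 in pair 1 and 0.053 in pair 2. The median absolute log2 difference was 0.055 between their si-ctrl libraries and 0.074 between their si-Atad2 libraries. The median absolute mean ratio was 0.049, but a mean of 2 ratios varies less than a single difference. For 12 of the 27 genes the mean ratio was larger in size than the difference between the si-ctrl libraries, a count with the same limit. Over all genes tested the median absolute ratio was 0.104 in pair 1 and 0.073 in pair 2, and that of the mean ratio was 0.074. The replicate differences over all genes were 0.057 for si-ctrl and 0.082 for si-Atad2.

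Differences between the si-ctrl replicates went with base composition, and those between the si-Atad2 replicates showed little of this. The transcripts of the 27 genes held 39.3% to 59.3% G and C, with Rif1 at the low end and Xrcc1 at the high end. Across the genes, the log2 ratio of si-ctrl 2 over si-ctrl 1 had a Spearman correlation of -0.70 with GC content (-0.55 over all 10267 genes). For si-Atad2 2 over si-Atad2 1 the correlation was 0.0055 (0.075 over all genes). Of the 9 repair genes under 45% GC, 8 stood higher in si-ctrl 2, against 10 of the 18 genes at or over it. The pair 1 ratio had a correlation of -0.27 with GC content (-0.29 over all genes) and the pair 2 ratio one of 0.076 (0.082 over all genes). These are correlations across genes that share the same libraries and are given as a description. With the GC trend of each pair removed, none of the 27 genes passed the test, and the mean ratio of Fanca, at 54.4% GC, was -0.19 (adjusted p = 0.201 by limma).

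**Figure D4:**
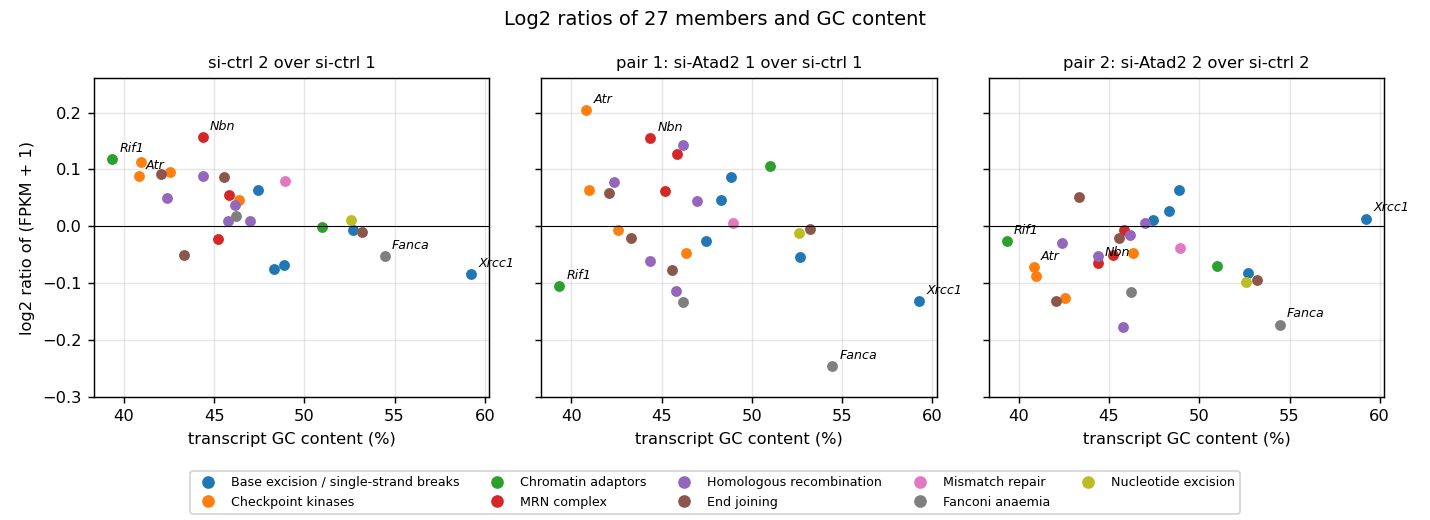
Log2 ratios of (FPKM + 1) (y axis) against transcript GC content in percent (x axis) for the 27 repair genes, coloured by role, for si-ctrl 2 over si-ctrl 1, for pair 1 and for pair 2. The points slope down in the comparison of the controls (Spearman -0.70), less in pair 1 (-0.27), and show little slope in pair 2 (0.076).

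For 19 of the 27 genes the level is a sum over 2 to 6 transcript rows, and Cuffdiff divides the fragments that rows share by an estimate. In 8 of these 19 the main row held 90% or more of the sum. Lig3 was the most divided. Its 4 rows of 5875 to 5945 bases held 13.8% to 36.3% of the sum each, and the ratio of the leading row was 0.31 and 0.16 whereas the next row had -0.19 and -0.0093. Ung, whose gene encodes a nuclear and a mitochondrial enzyme, had rows of 1934 and 1906 bases that held 53.7% and 43.1% of its sum. In pair 2 the ratios of these rows were 0.35 and -0.18, and the ratio of the whole gene was 0.027. A row of Ung of 1736 bases held 3.17% of the sum and was listed at 1.63 and 3.82 FPKM in si-ctrl and at 0.603 and 0.505 in si-Atad2. When only rows that match an annotated length were kept, this row alone stood for Ung. Ung then passed the test with a log2 ratio of -1.20 (adjusted p = 0.011 by limma). It was the one call among the 11 genes that could be tested in that way, and 45 of 3326 genes of the whole series were called. Fancd2 had its ratios of -0.17 and -0.18 in the row of 4741 bases, while the row of 4780 bases showed -0.018 and 0.053.

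For 6 of the 33 genes no level of their own can be given, and leading rows of the shared locus are described instead. Apex1, the main endonuclease at sites without a base, shares its locus with Pip4p1. A row of 1307 bases there, given to neither gene, stood at 80.8 and 85.0 FPKM in si-ctrl and at 89.8 and 82.5 in si-Atad2, with ratios of 0.15 and -0.042. Ercc1, a subunit of a nuclease of nucleotide excision repair, overlaps Cd3eap, and the unassigned row of 1082 bases had ratios of -0.077 and 0.032. Atrip, the partner of Atr, shares a locus with Trex1, where the unassigned row of 3130 bases stood between 6.69 and 7.15 FPKM in all 4 libraries. A row of 4196 bases nearest in length to Atrip was lower, at 1.28 and 0.702 FPKM in si-ctrl and at 0.604 and 0.344 in si-Atad2, with ratios of -0.51 and -0.34. In the locus of Trp53bp1, the adaptor that favours end joining, and Tubgcp4, the unassigned row of 7711 bases stood between 10.5 and 11.9 FPKM. A row of 2563 bases nearest in length to Trp53bp1 had 2.41 and 2.42 FPKM in si-ctrl and 3.21 and 2.74 in si-Atad2, with ratios of 0.31 and 0.13. Pms2, the mismatch repair endonuclease, shares its locus with Gm42421. An unassigned row of 3233 bases there stood at 7.19 and 9.03 FPKM in si-ctrl and at 7.11 and 10.5 in si-Atad2. Another unassigned row, of 3228 bases, went down, from 3.49 and 2.14 FPKM in si-ctrl to 2.80 and 0.547 in si-Atad2. The ratios were -0.015 and 0.20 for the longer row and -0.24 and -1.02 for the shorter. Fanci, the partner of Fancd2, shares its locus with Polg. The leading rows there, of 4619 and 4596 bases, were given to Polg by the nearest length alone. That step does not settle whether they hold RNA of Fanci. The row of 4619 bases stood at 21.5 and 22.3 FPKM in si-ctrl and at 18.5 and 21.5 in si-Atad2. The row of 4596 bases stood at 20.4 and 20.5 FPKM in si-ctrl. Their ratios were -0.21 and -0.047 for the longer row and -0.029 and 0.029 for the shorter. An unassigned row of 4520 bases stood at 1.68 and 0.644 FPKM in si-ctrl and at 0.958 and 0.619 in si-Atad2. The unassigned rows cannot be ascribed to the repair gene, and the rows nearest in length to Atrip and Trp53bp1 held less FPKM than the unassigned rows of their loci, so none was tested.

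The promoters of the repair genes were searched for short motifs of cell cycle promoters, since these are a feature that the list did not use. RefSeq start sites of GRCm38.p6 gave a promoter, from 250 bases before to 50 bases after the start, for 27 of the 33 genes (none for Rif1, Rad50, Nbn, Prkdc, Fancd2 and Xpc). The E2F motif TTTCCCGC, searched on both strands, was found in 6 of the 27 promoters (22.2%) and in 1.24% of the promoters of all 27025 gene symbols. The other E2F form, TTTGGCGC, was in none of the 27 and in 0.585% of all promoters. The CHR motif TTTGAA was in 1 of the 27 (Bard1) and in 20.2% of all, and CCAAT was in 15 of the 27 and in 41.1% of all. Of the repair genes outside the list, 74 had a promoter. Among these 74, TTTCCCGC was in 2, TTTGGCGC in 2, TTTGAA in 9 and CCAAT in 41, beside 1.24%, 0.585%, 20.2% and 41.1% of all promoters. The share of TTTCCCGC was thus higher in this list than among these 74 genes, a difference that rests on few matches and was not tested. The motifs do not overlap one another in letters within the windows shown. A match is a description of the letters and not of a factor's binding.

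The 6 promoters with TTTCCCGC are shown in the direction of the gene, with the match in capitals (GCGGGAAA where it lies on the other strand) and 26 bases on either side:
Chek2: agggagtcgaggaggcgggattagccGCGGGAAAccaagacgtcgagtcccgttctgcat
Mdc1: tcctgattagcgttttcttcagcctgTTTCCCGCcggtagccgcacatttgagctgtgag
Bard1: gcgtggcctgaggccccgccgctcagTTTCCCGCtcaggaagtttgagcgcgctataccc
Brca2: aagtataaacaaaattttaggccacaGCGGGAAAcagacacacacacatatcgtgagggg
Xrcc6: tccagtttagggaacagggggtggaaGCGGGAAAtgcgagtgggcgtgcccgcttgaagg
Msh6: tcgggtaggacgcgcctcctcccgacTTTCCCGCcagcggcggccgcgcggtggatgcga

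These stretches lie at chr5:110839805-110839864 (Chek2), chr17:35841456-35841515 (Mdc1), chr1:71103148-71103207 (Bard1, minus strand), chr5:150522427-150522486 (Brca2), chr15:82016297-82016356 (Xrcc6) and chr17:87975039-87975098 (Msh6), on the plus strand unless stated. Counted from the start site, the first base of the match is at -152 in Chek2, -16 in Mdc1, -209 in Bard1, -168 in Brca2, -46 in Xrcc6 and 15 in Msh6. The mean log2 ratios of these 6 genes on knockdown ran from -0.15 (Bard1) to 0.024 (Brca2), with a median of -0.032. The 15 tested genes with a promoter and no TTTCCCGC ran from -0.21 (Fanca) to 0.075 (Lig3), with a median of -0.012. The ranges overlapped, and no test was made of the difference.

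Other repair genes, 100 of them outside the list, gave the surroundings of these values, and 88 could be tested. One of the 88 passed, Wee1, the kinase that holds Cdk1 inactive until replication is finished, against 3.64% of all genes tested. Wee1 stood at 16.0 and 16.9 FPKM in si-ctrl and at 19.9 and 19.8 in si-Atad2. It rose by 0.26 on the log2 scale (ratios 0.30 and 0.22, standard error 0.070, adjusted p = 0.049 by limma). That call sits at the threshold. The adjusted p was 0.073 without the replicate block and lay between 0.031 and 0.391 over the alternatives tried. At an unadjusted p under 0.05, 10 of the 88 were counted, against 17.0% of all genes.

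The median log2 ratio of the 88 genes was 0.032. Of these genes 34 lay above 0 in both pairs, against 28.4% of all genes, and 17 lay below, against 34.3%. After rescaling to TPM, which left 90 of them tested, the median was 0.065 and the counts were 45 above and 10 below 0, against 39.1% and 22.5% of all genes. By route the medians of these other genes ran from -0.017 for the 12 of nucleotide excision repair to 0.090 for the 5 of mismatch repair. The 10 other Fanconi anaemia genes had a median of 0.033, and 4 of them lay above 0 and 2 below 0 in both pairs. The difference from Fanca and Fancd2 was not tested. The 23 other homologous recombination genes had a median of 0.042, beside 0.024 for the 5 listed ones.

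Genes that p53 switches on after DNA damage were counted as well, and 16 of 16 on the list could be tested. One passed, against 3.64% of all genes, and this was Sesn2, a stress-induced inhibitor of mTORC1 signalling that p53 and amino acid or metabolic stress induce. Sesn2 rose by 0.29 (standard error 0.063, adjusted p = 0.015 by limma), from 51.9 and 50.2 FPKM in si-ctrl to 64.1 and 61.2 in si-Atad2, and over the alternatives its adjusted p lay between 0.0082 and 0.350. The 16 genes ran from -0.20 to 0.29 with a median of 0.051. At an unadjusted p under 0.05, 6 of the 16 were counted, against 17.0% of all genes. Above 0 in both pairs were 7 of the 16, against 28.4% of all genes, and below 0 in both were 5, against 34.3%.

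**Figure D5:**
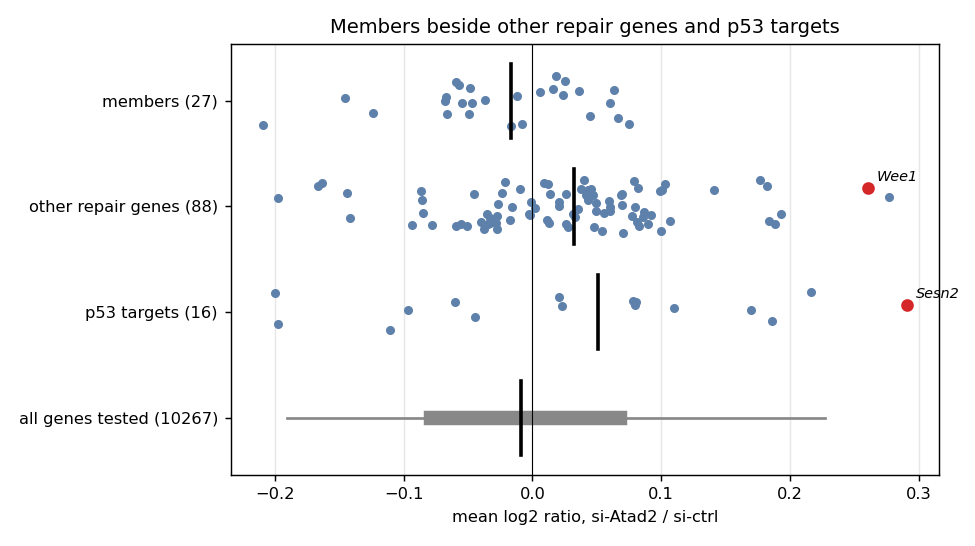
Mean log2 ratio of si-Atad2 over si-ctrl (x axis) for the 27 repair genes, 88 other repair genes and 16 p53 targets, with 1 point for each gene (height within a row has no meaning), the median as a black bar, and genes that passed the adjusted p of 0.05 in red. The bottom row gives the middle 50% (thick) and 90% (thin) of all 10267 genes tested. The 27 genes hold no red point, and Wee1 and Sesn2 are the red points of the other rows.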

How the data were processed

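RNA-seq of 46C ES cells (TruSeq RNA, HiSeq1000, paired ends of 50 cycles, 4 libraries in 1 lane) was analysed. The authors deposited FPKM values with 95% intervals for 59120 transcripts from 2 Cuffdiff runs of 1 si-Atad2 and 1 si-ctrl library each. The tools in the submitters' processing notes are TopHat and Cuffdiff, without versions. Those notes name mm9, but the loci of the tables are those of GRCm38, and whether counting used the strand is not given in the sources used here, so values of overlapping genes are uncertain. The authors' deposited columns of fold changes and p-values compare single libraries and were not used.

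Rows of at least 200 bases (52488) were given to genes of GENCODE vM21 by a length within 3 bases of a transcript in the locus (14060 rows), else to the only coding gene of the locus (28547), else to the gene with the nearest length if within 2% of the row's length and other genes were at least 3 times farther (2231). The last step was added after seeing the tables and named rows of Lig3, Atr, Msh6 and Fanca. Genes whose loci held more unassigned FPKM than their own were left out. FPKM were summed per gene, and genes with a mean of at least 1 FPKM were tested with limma on the within-pair log2 ratios (pseudocount 1 FPKM, an eBayes variance trend with mean level, Benjamini-Hochberg over all genes tested, threshold 0.05), so that the pair is the block because the authors' runs pair the libraries. A log2 ratio of FPKM + 1 understates the change of low genes. GC content is that of the annotated transcripts. Motifs were matched in RefSeq promoters.

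The members and gene lists were chosen with earlier results of these data known. Genes described in full are those past the threshold, the 5 highest and 5 lowest members by mean log2 ratio and the most abundant member of each role, and other genes have summary values. Alternatives were a pseudocount of 0.1 or of 5 FPKM, no filter or a minimum of 5 FPKM, TPM and median-of-ratios scaling, rows of all lengths, length-matched rows alone, the single highest row, removal of the GC trend (lowess, span 0.3), no replicate block, eBayes without a trend, a threshold of 0.1 and leaving out each pair, and, chosen after seeing the data, rows with status OK alone and no nearest-length step. Fits were run in limma 3.58.1 under R 4.3.3. Tables and plots were made in Python 3.11.15 with matplotlib 3.10.9, pandas 2.3.3, scipy 1.17.1 and numpy 2.4.6.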

Additional observations from a re-analysis of the deposited data

How the results depend on the processing

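No repair gene of the list was called under any alternative tried except with length-matched rows alone, which tested 11 of them and called 1 (Ung, 3.17% of whose sum lies in the row kept). The median log2 ratio of the listed genes, -0.017, became 0.019 after rescaling to TPM, and lay between -0.050 and -0.0040 when either pair was left out. Deviations from the group means correlated by only -0.0065 between libraries of the same number, so the numbers pair the libraries only through the authors' runs. Without the replicate block 180 genes were called in place of 374, 0 of the 27 repair genes, and 0 of the other repair genes. The count of genes called was also 0 without the filter (17129 genes tested) and 189 with median-of-ratios scaling. It was 59 with rows of all lengths, 45 with length-matched rows (3326 genes tested) and 130 with the single highest row. It was 113 with the GC trend removed, 660 at a threshold of 0.1 and 248 without the nearest-length step. Without the filter no gene passed, Atad2 included, at a log2 ratio of -1.53 and an adjusted p of 0.209 by limma. The other repair genes had 2 calls at the threshold of 0.1 and 0 without the filter, with median-of-ratios scaling, rows of all lengths, length-matched rows, the single highest row, the GC trend removed, no trend in eBayes, rows with status OK alone and no nearest-length step. Signs turned for Atm with the single highest row (0.029), Msh6 with TPM (0.019) and Rad50 with the GC trend removed (-0.0064). Leaving out either pair gave ranges that cross 0 for Msh6 (-0.038 to 0.0049), Atr (-0.072 to 0.20), Brca1 (-0.016 to 0.14), Mre11a (-0.0062 to 0.13), Nbn (-0.065 to 0.15) and Rad50 (-0.050 to 0.061). Beyond what fewer genes or libraries tested imply, the cause was not tested. The tables hold no counts, so no limit from depth can be given.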
